A study of Mus musculus with 8 samples.

Results

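The genes described are the potassium channel genes of the mouse retina: pore-forming subunits and the auxiliary subunits named with them. They were taken by symbol (Kcn, a family letter or letters and a number), without Kcnj10 and Kcng4 and without symbols that end in os or contain ot, and with an average level over the 8 libraries of 1 FPKM or more. FPKM is a fragment count scaled by transcript length and library depth. Of 24860 genes in the table, 94 symbols matched the name, 90 remained after the exclusions and 55 reached 1 FPKM. The other 35 candidates were below it, including the antisense genes Kcnmb4os1 and Kcnmb4os2. The values closest above this limit were 1.05 FPKM for Kcnmb4, 1.09 for Kcnd2 and 1.41 for Kcnip4, and closest below it 0.960 for Kcnk2, 0.914 for Kcnj8 and 0.841 for Kcne1l. Kcnmb4, Kcnd2, Kcng1 and Kcnk6 passed with the mean of 1 group under 1 FPKM, so part of their place among the 55 comes from the group where they are higher. Exons of 19 of the 55 genes share bases with another annotated gene, in 17 of them on the opposite strand, and without a stated strand setting such fragments cannot be told apart.

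RNA sequencing covered 8 libraries of mouse retina. In 4 of them, AAV2-shCX36, the eyes carried the viral vector AAV2 with a hairpin directed at connexin 36, which forms electrical synapses between retinal neurons. In the other 4, AAV2-scramble, the vector held a scrambled hairpin, so both groups were given the virus. The promoter that drives the hairpins, the cells infected, mouse strain, age, sex, any injury and the time after injection are not given in the sources used here. The mice behind each library are not identified, and the p-values therefore reflect only differences between libraries of a group.

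Potassium channels let potassium leave or enter a cell along its gradient, which sets the resting potential and ends electrical signals. Voltage-gated (Kv) channels open on depolarisation and are built of pore-forming subunits, some of which are silent alone and only modify a partner. Inward rectifiers (Kir) hold the cell near the potassium equilibrium, and two-pore-domain (K2P) channels carry leak current. In photoreceptors a Kv2 current of the inner segment shapes the voltage response to light, and in ganglion cells Kv1, Kv3 and Kv7 channels set firing.

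The libraries held FPKM sums of 282721 to 294055 and an estimated 35900000 to 38900000 counted fragments each. The targeted gene, Gjd2, had 17.0, 14.0, 14.6 and 16.6 FPKM in AAV2-shCX36 1 to 4 and 38.7, 35.9, 17.4 and 18.2 FPKM in AAV2-scramble 1 to 4. Every AAV2-shCX36 value was below every control value (log2 difference -0.70, two-sided exact permutation p = 0.0286, the smallest that 4 against 4 allows), but only AAV2-scramble 1 and 2 were far above. It was -0.19 without those 2 controls (exact p = 0.133) and -1.21 without AAV2-scramble 3 and 4 (exact p = 0.0667, the smallest that 4 against 2 allows). In limma its adjusted p was 0.148 with all libraries, 0.245 without the first pair and 0.00083 without the second. Leaving out any 1 AAV2-shCX36 library gave an exact p of 0.114 to 0.143. The labels name retinal ganglion cells as the cell type. Ganglion cell markers were present, with Thy1 at 432 to 840 FPKM, but the rod transducin gene Gnat1 stood at 273 to 704 FPKM and the cone opsin Opn1sw at 493 to 1.43e3, so other retinal cells contributed RNA. In bulk RNA, fewer cells of a type and less RNA per cell cannot be told apart.

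The family was carried by a few abundant subunits. By mean over the 8 libraries, the 5 highest genes, Kcne2, Kcnab2 and Kcnj9 among them, held 43.6% of the summed FPKM of the 55 genes. In all, 21 genes reached 10 FPKM and 12 were under 2 FPKM. The summed level was 718, 751, 770 and 719 FPKM in AAV2-shCX36 1 to 4 and 782, 766, 818 and 819 FPKM in AAV2-scramble 1 to 4, so the groups overlapped by the third AAV2-shCX36 library alone. Silent Kv subunits summed to 24.7 to 31.8 FPKM in AAV2-shCX36 and 32.5 to 42.7 in AAV2-scramble, without overlap. Kcnv2 carried that difference: the other 4 silent genes summed to 11 to 13.6 FPKM against 6.18 to 11.3, and each had a log2 difference above 0. For pore-forming Kv subunits these ranges were 316 to 357 and 333 to 355 FPKM, which overlap throughout.

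Kcnj14, Kcnv2 and Kcne2 fell after AAV2-shCX36, and Kcng1, Kcns1 and Kcnk4 rose. In all, 7 of 55 passed in limma at a Benjamini-Hochberg adjusted p under 0.05, taken over the 12858 genes tested, of which 4.76% passed. By direction, 2.52% of all genes tested were called lower and 2.24% higher, beside the 4 and 3 genes here. Of the 4 lower genes, 1 is not reported by name. Kcnj14, Kcnv2 and Kcne2 are abundant, at 9.98 to 66.3 FPKM after AAV2-shCX36, or 46.3% to 57.5% of the control mean. The 3 that rose are scarce, at 2.27 to 3.17 FPKM. Kcng1 had a control mean under 1 FPKM, so part of its place among the 55 comes from its AAV2-shCX36 values. The median log2 difference of the 55 genes was 0.06, against 0.01 over all genes tested, and 35 were above 0 and 20 below.

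**Figure D1:**
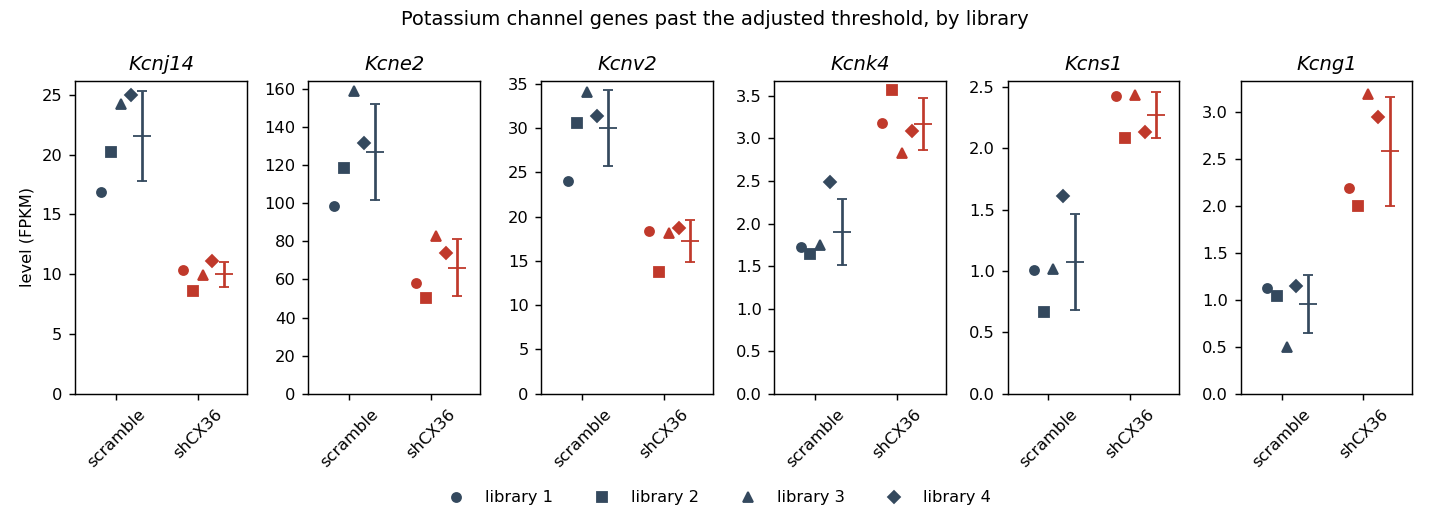
FPKM (vertical axes, each from 0) of 6 called genes in each library, with symbols for library 1 to 4, AAV2-scramble in blue and AAV2-shCX36 in red, and bars for mean and SD over 4 libraries. Kcnj14, Kcnv2 and Kcne2 are lower and Kcng1, Kcns1 and Kcnk4 higher in every AAV2-shCX36 library than in every AAV2-scramble library.

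Kcnj14 encodes Kir2.4, a strong inward rectifier (GRCm38 chromosome 7, 45816460 to 45824782, minus strand, protein-coding). It had 10.3, 8.59, 9.92 and 11.1 FPKM in AAV2-shCX36 1 to 4 and 16.9, 20.2, 24.2 and 25 FPKM in AAV2-scramble 1 to 4. The groups lay far apart, and AAV2-scramble 1 and 2 were the lowest controls, the reverse of Gjd2. Its mean fell to 9.98 ± 1.05 FPKM (SD, n = 4) against 21.6 ± 3.77, or 46.3% of the control (log2 -1.03 ± 0.13 SE, adjusted p = 0.00433 in limma). This was the smallest p of the 55 genes. It stayed under 0.05 with any single library left out.

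Kcnv2 encodes Kv8.2, a silent subunit that joins Kv2 channels in photoreceptors and is mutated in a human cone dystrophy with supernormal rod responses (chromosome 19, 27322588 to 27337179, plus strand). It had 18.3, 13.7, 18.2 and 18.7 FPKM in AAV2-shCX36 1 to 4 and 24.0, 30.6, 34.1 and 31.4 FPKM in AAV2-scramble 1 to 4. The groups did not overlap, and the second AAV2-shCX36 library was the lowest. Kcnv2 fell to 17.2 ± 2.37 FPKM against 30.0 ± 4.27, or 57.5% (log2 -0.76 ± 0.13, adjusted p = 0.0142 in limma), and passed with any single library left out.

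Kcne2 encodes MiRP1, a single-pass auxiliary subunit of Kv channels, and had the highest mean of the 55 genes. It had 58.0, 50.4, 82.7 and 74.0 FPKM in AAV2-shCX36 1 to 4 and 98.7, 119, 159 and 132 FPKM in AAV2-scramble 1 to 4. The spread within each group was wide, and the groups were apart. Kcne2 fell to 66.3 ± 14.7 FPKM against 127 ± 25.2, or 52.2% (log2 -0.93 ± 0.18, adjusted p = 0.0239 in limma). It missed the threshold without AAV2-shCX36 1 or 2 or AAV2-scramble 3 (adjusted p = 0.0804, 0.0708 and 0.0614).

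Promoter sequence is shown for Kcne2, which fell, and for Kcns1 and Kcnk4, which rose, as the called genes that the RefSeq promoter table for GRCm38.p6 holds. Each line gives the 250 bases before the annotated start, 5′ to 3′ on the gene's strand, with CG dinucleotides in capitals. Their places are chr16:92292139-92292388 (plus strand), chr2:164171114-164171363 (minus) and chr19:6934516-6934765 (minus).
Kcne2: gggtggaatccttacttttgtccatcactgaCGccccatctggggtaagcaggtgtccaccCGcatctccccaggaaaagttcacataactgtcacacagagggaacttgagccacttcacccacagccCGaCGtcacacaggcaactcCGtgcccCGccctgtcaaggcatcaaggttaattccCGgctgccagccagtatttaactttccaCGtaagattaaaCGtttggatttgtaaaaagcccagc
Kcns1: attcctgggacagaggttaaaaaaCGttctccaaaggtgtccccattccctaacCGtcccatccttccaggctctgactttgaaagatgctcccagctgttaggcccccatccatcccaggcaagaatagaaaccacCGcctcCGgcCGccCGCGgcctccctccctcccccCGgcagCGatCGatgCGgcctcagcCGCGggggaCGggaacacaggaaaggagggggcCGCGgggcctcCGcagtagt
Kcnk4: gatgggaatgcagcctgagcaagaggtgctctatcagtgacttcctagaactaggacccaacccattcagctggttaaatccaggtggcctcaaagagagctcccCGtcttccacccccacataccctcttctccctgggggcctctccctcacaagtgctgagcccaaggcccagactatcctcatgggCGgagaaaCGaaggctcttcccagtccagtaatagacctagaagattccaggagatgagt

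These stretches hold 9, 17 and 3 CG, against a median of 6 over 32851 windows of the table. A second Kcne2 start, with its 250 bases at chr16:92295366-92295615, holds 1. In windows of 300 bases that reach 50 past the start, 2 patterns were searched on both strands. TAATCC, a core of photoreceptor homeobox factors, was in none of the 4 called windows, in 1 of 52 windows of the 36 matched members, and in 7.06% of all windows. The core of the interferon-stimulated response element was in none of the 4, in 5 of the 52 and in 3.44% of all. Those 5 windows belong to 3 of the 36 members (8.33%), beside 3.99% of all genes with a window. No member window held both. A match is a description of letters only, and its absence says nothing of a factor.

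Markers of photoreceptors were lower beside Kcnj14, Kcnv2 and Kcne2, as were those of other cells. The 8 rod markers summed to 901 to 1273 FPKM in AAV2-shCX36 and 1420 to 2035 in AAV2-scramble, 6 of 8 were called lower and the median log2 difference was -0.73. The 8 cone markers summed to 1667 to 2573 against 2907 to 4407 FPKM, 3 were called lower, and the median was -0.73. The 7 Müller glia markers summed to 314 to 493 against 541 to 924 FPKM, with 4 called lower and a median of -1.06. Horizontal cell markers summed to 65.6 to 92.9 against 109 to 115 FPKM and amacrine cell markers to 40.3 to 50.8 against 50.9 to 56.2, with 1 called lower in each list. None of these sums overlapped between groups. Of all genes tested, 2.52% were called lower. The rod sum was 63.4% and the cone sum 58.1% of the control mean, beside 46.3% for Kcnj14, 57.5% for Kcnv2 and 52.2% for Kcne2. The part of these markers in the result was not tested.

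As a description chosen after the values were seen, each gene was divided by a marker sum of the same library. Kcnj14 per 1000 FPKM of rod markers was 8.55 to 9.54 in AAV2-shCX36 and 11.9 to 12.3 in AAV2-scramble, without overlap. Kcnv2 per 1000 FPKM of rod markers was 14.7 to 15.7 against 15.4 to 18.2, which overlap. Kcne2 per 1000 FPKM of cone markers was 28.7 to 32.5 against 30.3 to 37.1, overlapping as well.

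**Figure D2:**
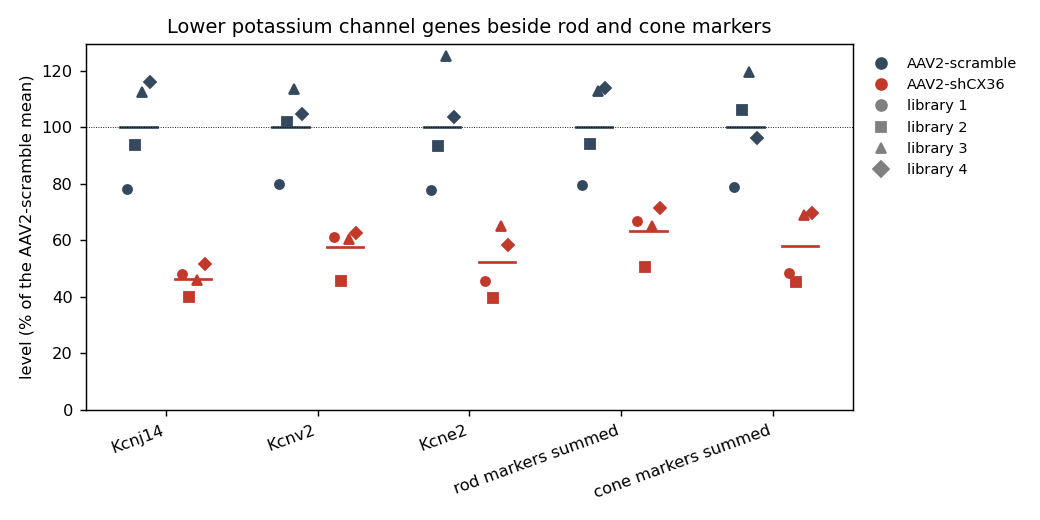
Level of Kcnj14, Kcnv2 and Kcne2 and of the summed rod and cone markers, as a percent of the AAV2-scramble mean. Points are single libraries by group (symbols for library 1 to 4) and short lines are group means; each quantity is lower in every AAV2-shCX36 library than in every AAV2-scramble library.

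The 3 genes that rose encode a leak channel and a pair of silent Kv subunits. Kcng1 encodes Kv6.1, a silent partner of Kv2 channels (chromosome 2, 168260117 to 168281736, minus strand). It had 2.18, 1.99, 3.19 and 2.94 FPKM in AAV2-shCX36 1 to 4 and 1.12, 1.04, 0.501 and 1.14 FPKM in AAV2-scramble 1 to 4. All controls were near or under 1 FPKM and the third was lowest. Kcng1 rose from 0.953 ± 0.305 to 2.58 ± 0.579 FPKM, a 2.70-fold ratio of means (log2 0.87 ± 0.16, adjusted p = 0.0214 in limma). It missed the threshold without AAV2-shCX36 1, 3 or 4 (adjusted p = 0.0524, 0.0677 and 0.0633).

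Kcns1 encodes Kv9.1, another silent partner of Kv2 (chromosome 2, 164163619 to 164171113, minus strand), and its CG-rich promoter is printed above. It had 2.43, 2.09, 2.44 and 2.13 FPKM in AAV2-shCX36 1 to 4 and 1.01, 0.668, 1.01 and 1.61 FPKM in AAV2-scramble 1 to 4. AAV2-scramble 4 was closest to the other group. Kcns1 rose from 1.08 ± 0.392 to 2.27 ± 0.188 FPKM, 2.11-fold (log2 0.67 ± 0.14, adjusted p = 0.0324 in limma). It passed only without AAV2-scramble 4 (adjusted p = 0.0145), and the other 7 omissions gave 0.0532 to 0.10.

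Kcnk4 encodes TRAAK, a leak channel opened by membrane stretch and polyunsaturated lipids (chromosome 19, 6923966 to 6934515, minus strand). It had 3.18, 3.57, 2.83 and 3.09 FPKM in AAV2-shCX36 1 to 4 and 1.72, 1.65, 1.75 and 2.48 FPKM in AAV2-scramble 1 to 4. AAV2-scramble 4 stood above the other controls. Kcnk4 rose from 1.90 ± 0.392 to 3.17 ± 0.309 FPKM, 1.67-fold (log2 0.53 ± 0.12, adjusted p = 0.0369 in limma). It passed only without AAV2-scramble 4 (adjusted p = 0.0164), and the other 7 omissions gave 0.0696 to 0.120. Its exons share 587 bases with Catsperz on the same strand, which had a mean of 3.69 against 2.73 FPKM, so some fragments could belong to either gene.

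Ganglion cell markers were higher beside these 3 genes. The 8 markers summed to 2479 to 2671 FPKM in AAV2-shCX36 and 1465 to 2574 in AAV2-scramble. All 8 had a log2 difference above 0 (median 0.32). None was called in limma, with 3 higher at an unadjusted p under 0.05, beside 12.3% of all genes tested. Lens markers summed to 125, 11.7, 17.0 and 275 FPKM in AAV2-shCX36 1 to 4 and at most 13.8 in AAV2-scramble. The levels of Kcng1, Kcns1 and Kcnk4 in AAV2-shCX36 1 and 4 lay within the range of 2 and 3. The part of these markers was not tested.

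The other 48 genes did not pass. Of them 32 had a log2 difference above 0 and 16 below, where 52.4% of all genes tested were above 0. At an unadjusted p under 0.05 in limma, 15 of all 55 were higher and 6 lower (12 and 2 of the 48), where 12.3% of all genes were higher and 10.3% lower. The groups did not overlap in 8 of the 55 that were higher and 6 that were lower (5 and 2 of the 48), where the shares of all genes were 8.85% and 7.05%. Among classes, the median log2 difference was 0.16 for 23 pore-forming Kv genes, 0.35 for 5 silent Kv genes, 0.13 for 4 calcium- or sodium-activated genes, -0.09 for 8 Kir genes, 0.04 for 6 K2P genes and 0.05 for 9 auxiliary genes.

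**Figure D3:**
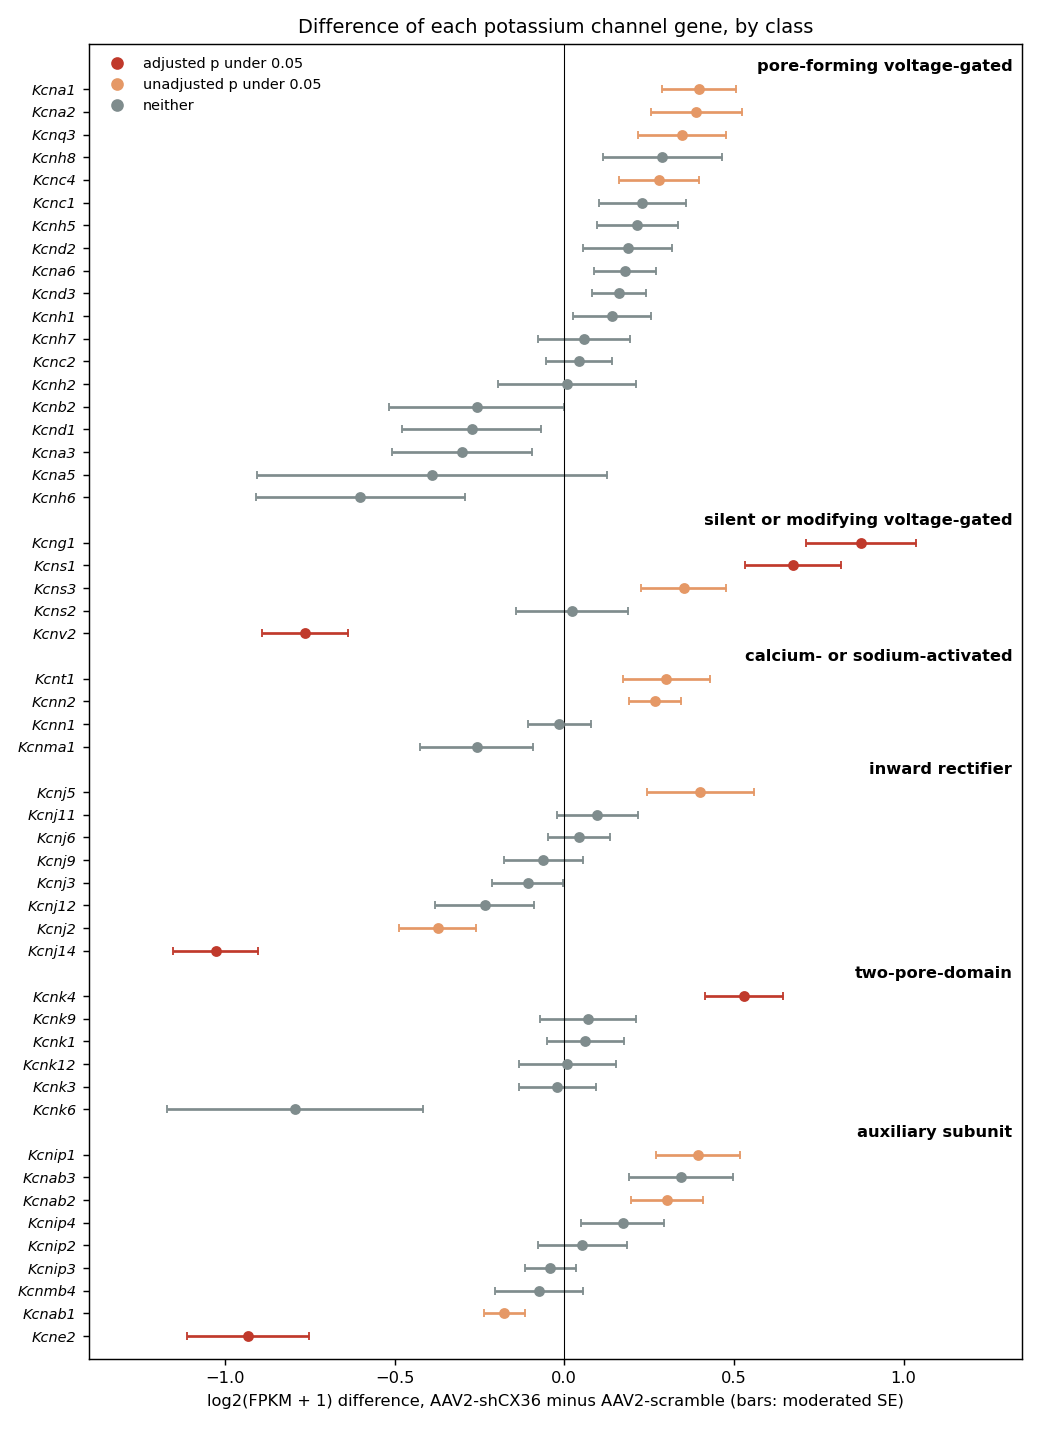
Log2 difference (AAV2-shCX36 minus AAV2-scramble, log2(FPKM + 1) scale) of 51 of the 55 genes by class, with bars for the moderated SE and colours for the level of p. Of the 19 pore-forming Kv genes shown, 14 lie right of 0.

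Among pore-forming Kv genes, Kcnq3 (Kv7.3) contributes to the M-current, a slow brake on firing. It had 5.58, 6.55, 6.36 and 4.86 FPKM in AAV2-shCX36 1 to 4 and 3.66, 3.74, 5.41 and 4.77 in AAV2-scramble 1 to 4. The third control reached the AAV2-shCX36 range, and the log2 difference was 0.35 ± 0.13 (adjusted p = 0.159 in limma). Kcnb2 (Kv2.2), a delayed rectifier, had 1.49 ± 0.173 FPKM against 2.17 ± 1.26 (adjusted p = 0.589), with AAV2-scramble 1 and 2 at 3.44 and 3.06 FPKM above all others.

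Kv1 subunits held 3 log2 differences above 0 and 2 below. Kcna1 (Kv1.1) had 9.28 ± 1.25 FPKM against 6.80 ± 0.840 (log2 0.40 ± 0.11, adjusted p = 0.0770 in limma), with an overlap only of 7.96 in AAV2-shCX36 4 against 7.99 in AAV2-scramble 4. Kcna2 (Kv1.2) had 31.4 ± 4.49 against 23.8 ± 4.04 FPKM (adjusted p = 0.138) and Kcna6 (Kv1.6) 22.6 ± 1.99 against 19.9 ± 2.15 (adjusted p = 0.284). Kcna3 (Kv1.3), common in microglia and lymphocytes, had 1.71 ± 0.811 against 2.26 ± 0.439 FPKM (adjusted p = 0.418). In Kcna2 the controls AAV2-scramble 3 and 4 reached the AAV2-shCX36 range, and in Kcna3 the AAV2-shCX36 libraries spanned most of it.

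The Kv3 genes Kcnc1, Kcnc2 and Kcnc4 allow fast firing. None of them passed in limma. Kcnc4 was higher at an unadjusted p under 0.05, as were 12.3% of all genes tested. Kcnc1 (Kv3.1) had 30.0, 36.3, 30.1 and 26.4 FPKM in AAV2-shCX36 1 to 4 and 24.9, 21.0, 27.5 and 31.1 in AAV2-scramble 1 to 4. The groups overlapped, with AAV2-scramble 1 and 2 lowest (log2 0.23 ± 0.13, adjusted p = 0.315 in limma). Kcnc4 (Kv3.4) had 12.8 ± 0.739 against 10.5 ± 1.93 FPKM (adjusted p = 0.202) and Kcnc2 (Kv3.2) 8.80 ± 0.671 against 8.55 ± 1.11.

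Kv4 subunits carry a transient current that delays firing. Kcnd3 (Kv4.3), the most abundant of them, had 15.6 ± 1.10 FPKM against 13.9 ± 1.22 (adjusted p = 0.261 in limma). Kcnd1 (Kv4.1) had 4.05 ± 0.854 against 5.24 ± 1.87 and Kcnd2 (Kv4.2) 1.22 ± 0.138 against 0.959 ± 0.276 FPKM. Their calcium-binding partner Kcnip1 (KChIP1) had 9.66 ± 0.940 against 7.17 ± 1.36 FPKM (log2 0.40 ± 0.12, adjusted p = 0.108), where AAV2-scramble 4 at 8.87 overlapped. Kcnip2, Kcnip3 and Kcnip4 had differences of 0.05, -0.04 and 0.17, all within the spread of the libraries.

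Among the ether-a-go-go genes, Kcnh2 and Kcnh6 differed between the control libraries. Kcnh2 (ERG1), known for repolarising heart muscle, had 21.8 ± 1.41 FPKM against 22.6 ± 7.62, and Kcnh6 (ERG2) 15.5 ± 2.17 against 26.2 ± 12.7 (adjusted p = 0.988 and 0.283 in limma). AAV2-scramble 1 to 4 had 29.7, 28.7, 15.3 and 16.8 FPKM of Kcnh2 and 37.7, 36.6, 16.9 and 13.6 FPKM of Kcnh6, so the first pair was above the AAV2-shCX36 range in both genes, and the second pair below it for Kcnh2 and within it for Kcnh6. Kcnh5 (EAG2), Kcnh8 (ELK1), Kcnh1 (EAG1) and Kcnh7 (ERG3), at means of 1.47 to 3.93 FPKM, had differences of 0.22, 0.29, 0.14 and 0.06, with adjusted p of 0.312 or more. Kcna5 (Kv1.5) had control values of 31.9, 27.2, 5.06 and 7.73 FPKM, against 7.95 to 13.8 after AAV2-shCX36.

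Of the silent Kv genes not called, Kcns2 (Kv9.2) had 4.91, 5.33, 6.23 and 5.0 FPKM in AAV2-shCX36 1 to 4 and 5.10, 3.60, 5.50 and 7.35 in AAV2-scramble 1 to 4. The groups overlapped fully (log2 0.02 ± 0.17, adjusted p = 0.951 in limma). Kcns3 (Kv9.3) had 1.43, 1.61, 1.72 and 2.25 FPKM in AAV2-shCX36 1 to 4 and 1.25, 0.867, 1.25 and 1.23 in AAV2-scramble 1 to 4. Here the groups did not overlap, and the difference was 0.35 ± 0.13 (adjusted p = 0.146).

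Calcium- and sodium-activated channels couple firing to ion entry, and none of the 4 passed in limma. At an unadjusted p under 0.05, 2 were higher, beside 12.3% of all genes tested. Kcnn2 (SK2) had 7.69, 7.68, 7.14 and 7.18 FPKM in AAV2-shCX36 1 to 4 and 6.08, 6.64, 5.35 and 5.97 in AAV2-scramble 1 to 4. All AAV2-shCX36 values were above all controls (log2 0.27 ± 0.08, adjusted p = 0.0825). Kcnt1, the sodium-activated channel Slack, had 13.3, 14.1, 12.5 and 12.7 FPKM in AAV2-shCX36 1 to 4 and 12.1, 12.7, 9.78 and 7.99 in AAV2-scramble 1 to 4. AAV2-scramble 3 and 4 were low and the second control overlapped (0.30 ± 0.13, adjusted p = 0.204). Kcnma1, the large-conductance BK channel, had 12.4, 11.2, 11.5 and 12.8 FPKM in AAV2-shCX36 1 to 4 and 18.3, 18.5, 10.7 and 12.1 in AAV2-scramble 1 to 4. Only AAV2-scramble 1 and 2 stood apart (-0.26 ± 0.17, adjusted p = 0.384), and Kcnn1 (SK1) had 2.66 ± 0.189 against 2.70 ± 0.265 FPKM.

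Of the inward rectifiers other than Kcnj14, none passed in limma, with Kcnj2 and Kcnj5 at an unadjusted p under 0.05. At that level 12.3% of all genes tested were higher, as Kcnj5 was, and 10.3% lower, as Kcnj2 was. Kcnj2 (Kir2.1), of the same group as Kcnj14, had 1.85, 2.37, 2.10 and 1.97 FPKM in AAV2-shCX36 1 to 4 and 3.35, 3.47, 2.74 and 2.43 in AAV2-scramble 1 to 4. The groups were apart, by a small gap at AAV2-scramble 4 (log2 -0.37 ± 0.11, adjusted p = 0.101). Kcnj12 (Kir2.2) had 3.50 ± 0.195 FPKM against 4.38 ± 1.18 (adjusted p = 0.370), with AAV2-scramble 1 and 2 above the others and a log2 difference of 0.02 without them (adjusted p = 0.906). Among the G-protein-gated Kir3 genes, Kcnj9 (Kir3.3) had 32.4, 34.7, 33.4 and 35.0 FPKM in AAV2-shCX36 1 to 4 and 43.3, 38.6, 28.1 and 33.3 in AAV2-scramble 1 to 4. Controls lay on both sides of a narrow AAV2-shCX36 range (-0.06 ± 0.12, adjusted p = 0.792). Kcnj5 (Kir3.4) had 27.2, 29.8, 31.2 and 24.8 FPKM in AAV2-shCX36 1 to 4 and 19.4, 15.3, 25.1 and 26.3 in AAV2-scramble 1 to 4. Its groups overlapped at AAV2-shCX36 4 (0.40 ± 0.16, adjusted p = 0.176). Kcnj3 (Kir3.1), Kcnj6 (Kir3.2) and Kcnj11 (Kir6.2, the pore of the ATP-sensitive channel) had log2 differences of -0.11 (adjusted p = 0.575), 0.04 (0.813) and 0.10 (0.668).

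Among K2P leak channels other than Kcnk4, none of 5 passed in limma. None had an unadjusted p under 0.05, beside 12.3% higher and 10.3% lower over all genes tested. Kcnk3 (TASK-1), the most abundant, had 13.2, 13.5, 13.2 and 14.1 FPKM in AAV2-shCX36 1 to 4 and 17.0, 14.9, 11.3 and 12.4 in AAV2-scramble 1 to 4. Kcnk1 (TWIK-1) had 6.58, 5.94, 6.85 and 5.97 FPKM in AAV2-shCX36 1 to 4 and 7.40, 6.47, 4.88 and 5.58 in AAV2-scramble 1 to 4. Both had controls above and below the other group, with differences of -0.02 ± 0.11 and 0.06 ± 0.11 (adjusted p = 0.934 and 0.789). Kcnk12 (THIK-2) had 4.46, 5.25, 5.34 and 4.46 FPKM in AAV2-shCX36 1 to 4 and 4.49, 3.52, 5.44 and 6.20 in AAV2-scramble 1 to 4, which overlap fully (0.01 ± 0.14, adjusted p = 0.980). Kcnk9 (TASK-3) had 2.62 ± 0.670 against 2.41 ± 0.185 FPKM. Kcnk6 (TWIK-2), a channel of macrophages and microglia among other cells, had 0.984 ± 0.540 against 2.77 ± 1.93 FPKM (adjusted p = 0.250), with controls of 3.93, 4.81, 1.65 and 0.672 FPKM.

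Among auxiliary subunits other than Kcne2, the cytoplasmic beta subunits of Kv1 were the most abundant. Kcnab2 (Kv beta 2) had 93.5, 104, 95.8 and 92.8 FPKM in AAV2-shCX36 1 to 4 and 74.6, 63.8, 84.7 and 91.7 in AAV2-scramble 1 to 4. The fourth control nearly reached the other group (log2 0.30 ± 0.11, adjusted p = 0.141 in limma). Kcnab1 (Kv beta 1) had 7.98, 7.99, 7.86 and 7.91 FPKM in AAV2-shCX36 1 to 4 and 9.49, 9.47, 8.59 and 8.87 in AAV2-scramble 1 to 4. Its groups were apart by a small step (-0.18 ± 0.06, adjusted p = 0.136). Kcnab3 (Kv beta 3) had 23.2, 27.6, 20.7 and 21.3 FPKM in AAV2-shCX36 1 to 4 and 18.3, 12.9, 20.5 and 21.4 in AAV2-scramble 1 to 4, overlapping at the fourth control (0.34 ± 0.15, adjusted p = 0.226). Kcnmb4, a BK beta subunit, had 0.997 ± 0.135 against 1.11 ± 0.277 FPKM.

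The control libraries did not behave as 1 group, over all genes tested as well as in this family. AAV2-scramble 1 and 2 were both above all other 6 libraries in 13 of 55 genes (23.6%), near the 19.6% of all genes tested. Both were below in 18 (32.7%), beside 14.6% of all genes. The 13 included Kcnab1, Kcnma1, Kcnj9, Kcnj12, Kcnj2, Kcnh2, Kcnh6, Kcna5, Kcnd1, Kcnb2, Kcnk3 and Kcnk6. The 18 below included Kcnq3, Kcna2, Kcnc1, Kcnc2, Kcnc4, Kcnd2, Kcnd3, Kcnab2, Kcnab3, Kcnj5 and Kcnj11. Kcns1 and Kcnk4, called higher with all libraries, were among these 18 as well. This is a description without a test, and the labels name no batch for these libraries.

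**Figure D4:**
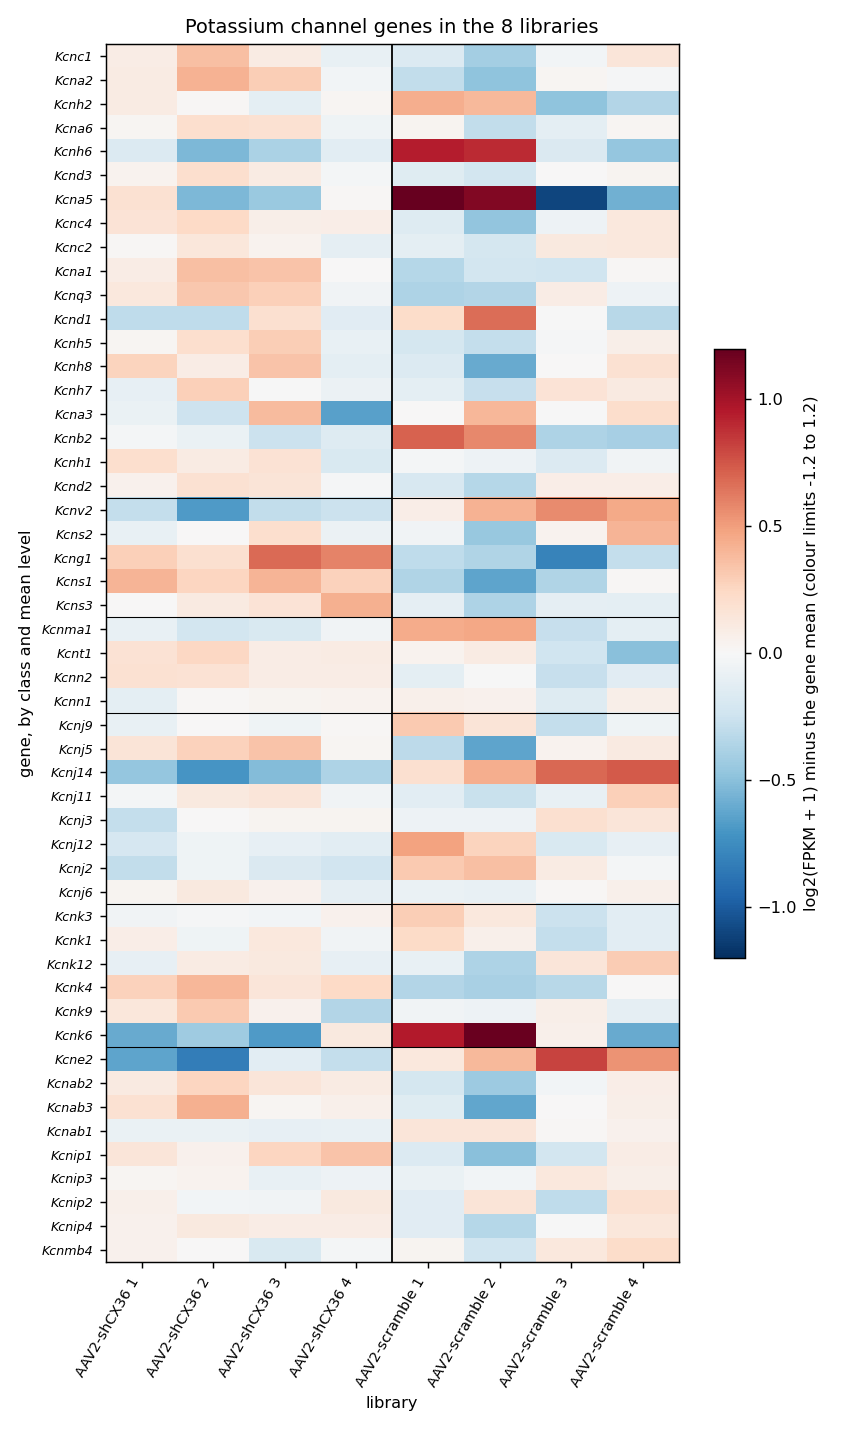
Level of 51 of the 55 genes in each library relative to the gene's own mean over the 8 libraries (log2(FPKM + 1) scale, colour bar). AAV2-scramble 1 and 2 stand out from the other 6 libraries, above them in 12 genes shown and below them in 17. Of all genes tested, 19.6% and 14.6% did so.

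Markers of other cells moved with this split. Microglial markers summed to 542, 513, 262 and 121 FPKM in AAV2-scramble 1 to 4 and 111 to 188 in AAV2-shCX36. Oligodendrocyte markers summed to 52.0, 160, 11.2 and 11.5 FPKM against 10.6 to 12, and bipolar cell markers to 311, 316, 86.1 and 105 FPKM against 113 to 163. Ganglion cell markers ran the other way, at 1932, 1465, 2293 and 2574 FPKM in AAV2-scramble 1 to 4 and 2479 to 2671 in AAV2-shCX36. Of these lists, 1 of 6 microglial, none of 5 tested oligodendrocyte and none of 8 bipolar genes were called lower in limma, and none of 8 ganglion cell genes was called. In the first 3 lists 5, 0 and 2 were lower at an unadjusted p under 0.05. Of all genes tested, 10.3% were lower at that level and 2.52% were called lower. The part of these cells in the potassium channel values was not tested.

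The comparison was therefore also made with each pair of controls left out. The pairs were taken with these values known, so calls of genes listed above for the split are no separate support. Without AAV2-scramble 1 and 2, 4 genes were higher in limma (Kcng1, Kcnh2, Kcnn2 and Kcnt1), beside 4.43% of all genes, and 4 lower (among them Kcne2, Kcnj14 and Kcnv2), beside 3.08%. Without AAV2-scramble 3 and 4, 15 of the 54 genes tested were higher, beside 11.9% of all genes, and 15 lower, beside 14.8%. The 15 higher included the Kv1 genes Kcna1 and Kcna2 with their beta subunits Kcnab2 and Kcnab3, the Kv3 genes Kcnc1 and Kcnc4, the Kv4 gene Kcnd3 with Kcnip1, and the Kv7 gene Kcnq3. The 15 lower included Kcnk6, Kcna5, Kcnh6 and Kcnb2, at -1.47, -1.42, -1.22 and -0.77 (adjusted p = 0.0046, 0.00354, 0.00136 and 0.00473 in limma). Against AAV2-scramble 3 and 4 the same genes had -0.12, 0.64, 0.02 and 0.25, none of them called. Of the 54 genes, 20 had opposite signs in the 2 comparisons, which share the AAV2-shCX36 libraries. Kcnh2 was called in both, at 0.42 without the first pair (adjusted p = 0.0190) and -0.41 without the second (adjusted p = 0.00863).

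Kcnj14, Kcnv2 and Kcne2 were called lower with either pair left out. Their log2 differences, without AAV2-scramble 1 and 2 and then without 3 and 4, were -1.22 and -0.83 for Kcnj14, -0.90 and -0.63 for Kcnv2, and -1.14 and -0.73 for Kcne2. Each was larger in size against AAV2-scramble 3 and 4. In AAV2-scramble 1 to 4, rod markers summed to 1420, 1679, 2013 and 2035 FPKM and cone markers to 2907, 3916, 4407 and 3546. The part of rods and cones in these differences was not tested. Kcng1 was called higher in both, at 0.98 and 0.77. Both comparisons share the AAV2-shCX36 libraries, from which part of its place among the 55 genes comes. Kcns1 and Kcnk4 passed only against AAV2-scramble 1 and 2, at 0.84 and 0.63. Against 3 and 4 they had 0.51 and 0.43 (adjusted p = 0.0633 and 0.0905 in limma). Both are among the genes listed for the split, so passing against AAV2-scramble 1 and 2 is no separate support.

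**Figure D5:**
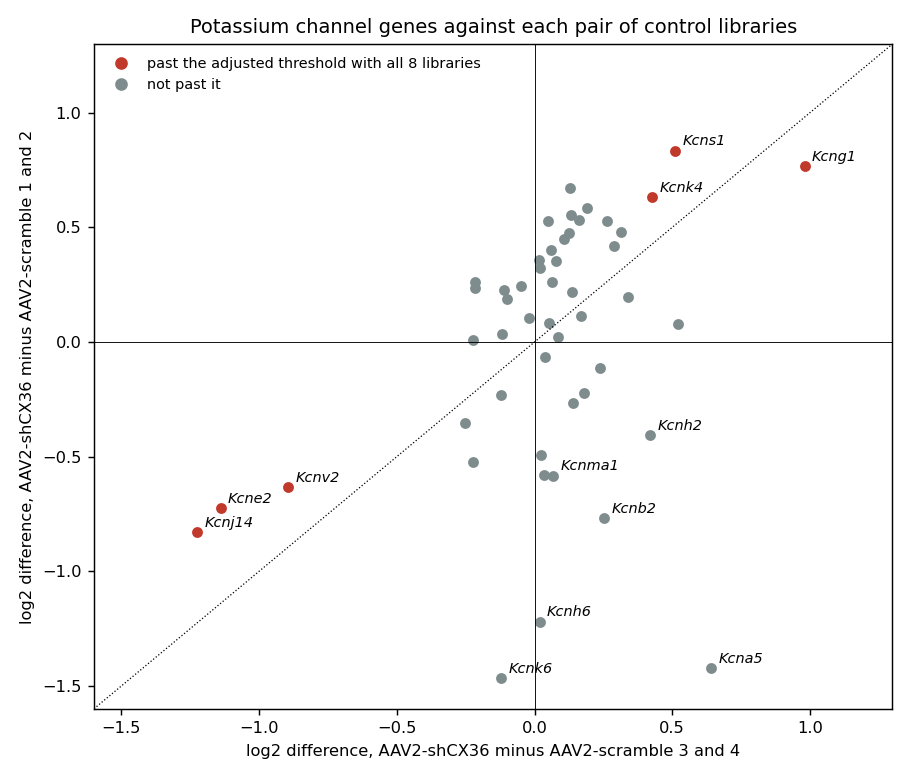
Log2 difference of each gene (log2(FPKM + 1) scale) against AAV2-scramble 3 and 4 (horizontal) and against AAV2-scramble 1 and 2 (vertical), 1 point per gene, 50 genes, with a dotted line of equality. The 6 called genes shown keep their sign on both axes, while 19 genes lie on opposite sides of 0.

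Genes that anchor or modify potassium channels under other names were counted from a list of 20, of which 19 were in the table and 17 were tested. None was called higher in limma and 1 lower, beside 2.24% and 2.52% of all genes tested. At an unadjusted p under 0.05, 4 were higher and 2 lower, beside 12.3% and 10.3% of all genes. The median log2 difference was 0.13, against 0.01 over all genes tested. Dlg1 (SAP97), a scaffold that binds Kv1 and Kir2 channels, had 4.53, 4.51, 4.88 and 4.67 FPKM in AAV2-shCX36 1 to 4 and 5.95, 5.71, 6.24 and 5.95 in AAV2-scramble 1 to 4. The groups were well apart, and Dlg1 fell by 0.30 on the log2 scale (SE 0.07, adjusted p = 0.0390). The count of 1 became 0 with any single library other than AAV2-scramble 4 left out. Dlg4 (PSD-95), its relative, had 86.0, 86.7, 98.7 and 92.0 FPKM in AAV2-shCX36 1 to 4 and 100.1, 117, 112 and 108 in AAV2-scramble 1 to 4, without overlap (adjusted p = 0.0680). Dpp6, which speeds Kv4 channels, had 37.6 ± 0.700 against 31.9 ± 3.62 FPKM (adjusted p = 0.133), and the Kv1 partner Adam22 18.9 ± 1.51 against 15.5 ± 1.92 (adjusted p = 0.138).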

How the data were processed

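Per the labels' protocols, total RNA (QIAGEN RNeasy Micro Kit) was sequenced as 150 bp paired-end reads. The submitters' processing notes name fastp, HISAT2, HTSeq, R 3.2.0, DESeq2, GRCm38 and mm10, and no source used here states the strand setting of the counting. The authors deposited FPKM for 24860 symbols in 8 libraries, and no count model applies to this unit. 0 value columns were unmatched. Groups came from the sample titles.

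limma 3.58.1 (R 4.3.3; lmFit, eBayes with trend) was fitted on log2(FPKM + 1) for 12858 genes averaging 1 FPKM or more, with Benjamini-Hochberg adjustment over all of them and a threshold of 0.05; log2 differences understate changes of low genes. Gjd2 had an exact test over 70 relabellings. The fit was also run on simulated data. Values there were drawn independently for each library, so that run does not cover the split of the controls. Library depth, inferred from how low values are spaced, is approximate, since 61 of 399 values fell in the modal bin. Positions are from GENCODE vM21. Figures used matplotlib 3.10.9.

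Genes were named in full if called, if their groups did not overlap at an unadjusted p under 0.05, or if among the 3 most abundant of their class; others in brief; 4 members are counted but not reported by name here. The members, lists and alternatives were chosen with earlier results of these data known. Alternatives were pseudocounts, scalings, filters, variance models, a replicate block, thresholds, and single or paired libraries left out. Proteins were not analysed here.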

Additional observations from a re-analysis of the deposited data

Results flagged for a closer look

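In 6 of 104 group values, 1 library stood far from the other 3 of its group, by a gap to the nearest that is a large share of the group's range; chance marks about 1 in 20 groups. In AAV2-shCX36 these were Kcnv2 in library 2 (13.7 FPKM, the lowest) and Kcnj3 in library 1 (3.61 FPKM, the lowest). In AAV2-scramble they were Kcng1 in library 3 (0.501 FPKM, the lowest), Kcns3 in library 2 (0.867 FPKM, the lowest), Kcnn1 in library 3 (2.31 FPKM, the lowest) and Kcnk4 in library 4 (2.48 FPKM, the highest). 3 of them, Kcnv2, Kcng1 and Kcnk4, are called genes. Without the marked library, the adjusted p in limma was 0.0385 for Kcnv2, 0.0458 for Kcng1 and 0.0164 for Kcnk4.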

How the results depend on the processing

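None of the 7 called genes changed sign under any alternative run, and Kcnj14 and Kcnv2 passed in all 8 omissions of a single library; Kcnv2 missed the threshold only in the replicate block. The 3 higher calls became 1 with quantile normalization and 0 with no filter and with the replicate block in limma. Under no filter and the replicate block, 14 and 14 members were higher at an unadjusted p under 0.05. In the main fit, 12.3% of all genes tested were higher and 10.3% lower at that level. A filter of 5 FPKM leaves 31 members and removes all 3 genes called higher. Its count of 0 (10 at an unadjusted p under 0.05) is therefore no test of them. Over all genes the calls moved as well, from 288 higher and 324 lower to 268 and 389 with quantile normalization, 177 and 134 with no filter, 107 and 57 with the replicate block, and 96 to 575 and 70 to 591 with a single library left out. The 3 higher calls among the members became 7 at an adjusted p under 0.1, 0 to 7 with a single library left out and 15 without AAV2-scramble 3 and 4. The 4 lower calls became 2 with no filter, 2 to 6 with a single library left out and 15 without AAV2-scramble 3 and 4. The median of 0.06 ranged from 0.02 to 0.11 with a single library left out and was 0.15 without AAV2-scramble 3 and 4. The partner call of 1 became 0 with quantile normalization, no filter and the replicate block (5, 5 and 6 at an unadjusted p under 0.05), 2 at an adjusted p under 0.1 and without AAV2-scramble 1 and 2, 11 without AAV2-scramble 3 and 4, and 0 to 1 with a single library left out. The Gjd2 difference of -0.70 had an exact p of 0.125 in the replicate block, the smallest that 4 pairs allow, ranged from -0.88 to -0.51 with a single library left out, and was -0.19 and -1.21 without each control pair. Kcnh2, at 0.01 over all libraries, was -0.41 without AAV2-scramble 3 and 4. Deviations from the group means, taken over genes, correlated at 0.128, -0.302, 0.227 and -0.269 between same-numbered libraries. Differently numbered libraries gave -0.239 to 0.271. These values cannot show whether a shared number marks a pair. The cause of these changes was not tested. The depth behind single FPKM values is approximate, which limits genes near 1 FPKM.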

Other observations

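Potassium channel genes averaging under 1 FPKM were not tested in the main fit. Kcnj8, the pore of the ATP-sensitive channel of pericytes, had group means of 0.640 FPKM after AAV2-shCX36 and 1.19 in AAV2-scramble. Kcne1l, an auxiliary subunit gene, had 0.463 and 1.22 FPKM, and Kcnk13 (THIK-1), the leak channel of microglia, had 0.151 and 0.404. Kcnk2 (TREK-1), a stretch-sensitive relative of Kcnk4, had 1.00 and 0.916 FPKM. Kcnj13 (Kir7.1), a channel of the pigment epithelium, stood at no more than 0.152 FPKM in any library.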
